A study of Mus musculus with 20 samples.

Results

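This account describes 10 genes that mark macrophages in general (Lyz2, Tyrobp, Fcer1g, Ctss, Cd68, Adgre1, Csf1r, C1qa, C1qb and C1qc) in the mRNA pulled down with adipocyte ribosomes from epididymal adipose tissue (epiAT) of mice. They were chosen by name, with earlier results of these data known. They are the rows of the deposited counts whose Ensembl identifier carries 1 of these symbols. All 10 were present among 46078 genes and passed the filter on low counts, which 21464 genes passed. All mice carried the AdipoERCre and NuTRAP alleles, on a background given as C576BL6 in the labels and as C57BL/N in the study's methods: Cre driven by the adiponectin promoter is switched on with tamoxifen and lets adipocytes make a GFP-tagged ribosomal protein, so that ribosome-bound mRNA can be captured from homogenized tissue and sequenced (TRAP–seq). In the short arm, C mice ate chow and H mice a high-fat diet (HFD) for 12 weeks and both were 18 weeks old, whereas HC mice lost weight (WL) on 8 weeks of chow after that HFD and, with their chow controls CC_s, were 26 weeks old (3 mice each). In the long arm, CC_l mice on chow and HH mice on HFD for 25 weeks were 31 weeks old, and HHC mice, with 8 weeks of chow after that HFD, and their chow controls CCC were 39 weeks old (2 mice each). Each library was labelled as adipocytes of 1 mouse, and the sample identifiers begin with a different prefix in each arm. The labels do not say what the prefix stands for, and it cannot be told apart from the arm, so comparisons were made with chow mice of equal age within an arm.

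Macrophages are phagocytes of the innate immune system that live in every adipose depot and become more numerous in epiAT during obesity, where many of them surround dying adipocytes. Lysozyme, cathepsin S and CD68 belong to their lysosomes, Tyrobp and Fcer1g are signalling adapters of their activating and Fc receptors, Csf1r receives the growth signals that keep them alive, Adgre1 is the F4/80 antigen, and the 3 C1q chains form the recognition molecule of the classical complement pathway. In a pulldown from a whole depot, more macrophages and more of each transcript per macrophage cannot be told apart. Nor can more of each transcript in the captured fraction or in the tagged adipocytes themselves.

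The genes lie at separate places in the genome, except for the C1q genes. In mm10 (GENCODE vM21), C1qb (chr4:136880129-136886187), C1qc (chr4:136889804-136893065) and C1qa (chr4:136895917-136898803) follow each other on the minus strand of chromosome 4. Lyz2 is at chr10:117277331-117282321, Fcer1g at chr1:171229572-171234365 and Cd68 at chr11:69664213-69666153, all on the minus strand. Ctss is at chr3:95526786-95556403, Tyrobp at chr7:30413760-30417585, Adgre1 at chr17:57358691-57483527 and Csf1r at chr18:61100598-61132149, all on the plus strand. All 10 are protein-coding. Of the 50-base words in the Lyz2 transcripts, 15.4% also occur in its paralog Lyz1, so a part of the Lyz2 reads could not be assigned to 1 gene with certainty. Lyz1 itself lay between 4.32 and 54.2 CPM (counts scaled to the size of the library) and did not follow Lyz2 in H against C (log2 fold change -0.45 ± 0.70). Its changes were 0.23 ± 0.70 in HC, 0.77 ± 0.86 in HH and 0.48 ± 0.86 in HHC against their controls. Between chow groups it moved in the direction of Lyz2, at 1.55 ± 0.87 in CCC against CC_l and -1.20 ± 0.71 in CC_s against C. In Csf1r, 15.1% of the exon bases overlap exons of Hmgxb3 on the other strand, a gene with at most 7.41 CPM in any mouse.

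Depth ranged from 10710277 to 36738954 counts per library, at which 3 counts correspond to 0.280 and 0.0817 CPM, and no member had fewer than 82 counts in any mouse. Among the nonzero counts up to 10, between 89.6% and 95.8% were even numbers. Adipoq, which encodes adiponectin, lay between 493 CPM in mouse 3 of HC and 8796 CPM in an HHC mouse. Markers of 2 other tissues that border the depot stood out in single libraries: the summed CPM of 5 spermatid genes reached 3114 in mouse 1 of CC_l and 434 in mouse 3 of HC, against at most 90.8 in the other libraries, and that of 4 epididymal epithelium genes reached 1818 in mouse 1 of C, against at most 242 elsewhere. Counts of members called without mouse 1 of CC_l and mouse 3 of HC are given with the comparisons, and without mouse 1 of C the counts stayed at 9 in H against C and 0 in CC_s against C.

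Promoter windows from RefSeq (GRCm38.p6, from 250 bases before to 50 bases after the start) were searched for 6 of the 10 genes. Csf1r was left out of the search, and Tyrobp, Adgre1 and C1qa had no entry. Sequence upstream of the start is shown here for the most abundant member (Lyz2), the member with the largest fold in H (Cd68) and the 2 C1q genes with an entry, each cut where the outermost annotated transcript begins, with capitals for AGGAA or its reverse complement TTCCT, the core that PU.1 and other ETS factors bind. The intervals are chr10:117282322-117282522, chr11:69666171-69666420, chr4:136886201-136886450 and chr4:136893066-136893164, all on the minus strand and read 5′ to 3′.
Lyz2: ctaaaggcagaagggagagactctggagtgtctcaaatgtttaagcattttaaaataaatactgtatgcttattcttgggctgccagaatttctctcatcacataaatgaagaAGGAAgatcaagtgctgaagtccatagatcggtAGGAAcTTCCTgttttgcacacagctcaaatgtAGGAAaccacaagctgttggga
Cd68: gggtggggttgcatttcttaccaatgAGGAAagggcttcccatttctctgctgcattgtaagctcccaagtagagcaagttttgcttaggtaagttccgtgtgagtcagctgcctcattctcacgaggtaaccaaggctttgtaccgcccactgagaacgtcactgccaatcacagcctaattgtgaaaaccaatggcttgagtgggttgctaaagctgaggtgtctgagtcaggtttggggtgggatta
C1qb: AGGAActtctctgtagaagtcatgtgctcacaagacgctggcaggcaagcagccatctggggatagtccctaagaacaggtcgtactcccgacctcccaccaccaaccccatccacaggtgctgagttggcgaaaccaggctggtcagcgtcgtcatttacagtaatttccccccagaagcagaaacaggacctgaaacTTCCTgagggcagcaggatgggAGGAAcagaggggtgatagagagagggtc
C1qc: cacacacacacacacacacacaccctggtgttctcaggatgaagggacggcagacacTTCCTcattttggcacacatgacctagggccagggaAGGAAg
Searched on both strands of the full windows, AGGAA was found in 6 of the 6 members searched and in 66.7% of all 32851 promoter windows searched. The longer GAGGAA, every match of which is also a match of AGGAA, was found in 4 of 6 (Ctss, Cd68, C1qb and C1qc) and in 28.3% of all windows. The AP-1 motif TGANTCA was found in Cd68 only, at positions -149 and -24 from the start, and in 7.81% of all windows. These matches describe letters in a short window and not binding.

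The lysosomal genes Lyz2, Ctss and Cd68 are described first. Lyz2, which encodes lysozyme, was at 129, 122 and 70.6 CPM in the C mice and at 605, 1805 and 266 CPM in the H mice. In CC_s it was at 82.1, 69.8 and 68.0 CPM and in HC at 266, 219.9 and 560.0 CPM. In both comparisons the lowest HFD or WL mouse was above the highest chow mouse. After 25 weeks, Lyz2 stood at 94.7 and 174 CPM in CC_l and 1836 and 2126 CPM in HH, the highest level of any member in any group, and at 358 and 347 CPM in CCC and 446 and 359.8 CPM in HHC. The log2 fold change was 3.06 ± 0.60 (SE) in H against C (adjusted p = 0.0145, the quasi-likelihood test of edgeR, adjusted by the Benjamini-Hochberg procedure), 2.25 ± 0.58 in HC against CC_s (adjusted p = 0.536) and 3.88 ± 0.76 in HH against CC_l (adjusted p = 0.0247). After WL from the longer HFD it was 0.19 ± 0.68 (adjusted p = 0.975), with both CCC mice already above every other chow mouse. A gene was called a DEG where its unadjusted p was under 0.01 and its log2 fold change was at least 1 in size, and by that rule Lyz2 was called in H, HC and HH and not in HHC.

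Ctss encodes cathepsin S, a protease that trims the invariant chain of MHC class II. Its levels were 46.2, 37.0 and 23.0 CPM in C, 297, 1034 and 151 CPM in H, 28.9, 23.6 and 24.6 CPM in CC_s and 90.2, 116 and 501 CPM in HC. The HFD and WL mice were above their controls without overlap, but mouse 3 of HC was 5.55 times as high as the lowest HC mouse. The long-arm values were 18.9 and 90.9 CPM in CC_l, 1098 and 1067 CPM in HH, 205 and 80.8 CPM in CCC and 627 and 175 CPM in HHC, so that the HH mice were nearly equal and the HHC and CCC mice overlapped. Log2 fold changes were 3.80 ± 0.85 (H, adjusted p = 0.0284), 3.20 ± 0.83 (HC, adjusted p = 0.536), 4.30 ± 1.07 (HH, adjusted p = 0.046) and 1.49 ± 0.95 (HHC, adjusted p = 0.595). Without mouse 3 of HC, the log2 fold change of Ctss in HC was 2.00 and the gene was no longer called. Without mouse 1 of CC_l it was 3.58 in HH, which also ended the call.

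Cd68, a glycoprotein of late endosomes and lysosomes, had the largest log2 fold change of the 10 in H against C (3.88 ± 0.78, adjusted p = 0.0164) and in HC against CC_s (3.68 ± 0.78, adjusted p = 0.344). Levels were 8.60, 11.1 and 8.78 CPM in C and 102, 285 and 31.5 CPM in H, a fold of 14.7. In CC_s they were 5.96, 5.20 and 6.09 CPM, the lowest group of this gene and without overlap with C, and in HC 38.1, 36.3 and 147 CPM. Thus Cd68 stayed above the controls in each HC mouse. Of the older mice, the 2 in CC_l differed 6.85 times, at 7.01 and 48.1 CPM, and the HH mice were at 286 and 536 CPM (log2 fold change 3.90 ± 0.96, adjusted p = 0.0438), a call that was lost when only the compared groups were fitted (4.04). CCC was at 39.0 and 38.6 CPM and HHC at 71.9 and 73.0 CPM, close pairs that did not overlap, with a log2 fold change of 0.90 ± 0.86 (adjusted p = 0.746).

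For both signalling adapters, H and HH were the 2 highest groups by mean and C, CC_s and CC_l the 3 lowest. Tyrobp (DAP12), the adapter of Trem2 and related receptors, was at 8.17, 8.19 and 5.19 CPM in C and 83.3, 161 and 26.1 CPM in H. It was at 9.27, 5.00 and 8.11 CPM in CC_s and 29.9, 29.0 and 72.6 CPM in HC. All H and HC mice exceeded the highest mouse of their control, and Tyrobp had the lowest p of the 10 in H against C (3.65 ± 0.57, adjusted p = 0.00492). The change in HC against CC_s was 2.56 ± 0.55 (adjusted p = 0.344). Over 25 weeks Tyrobp was at 8.84 and 17.8 CPM in CC_l and 178 and 234 CPM in HH (3.95 ± 0.71, adjusted p = 0.0187). After WL it was at 32.0 and 23.8 CPM in CCC and 54.3 and 45.5 CPM in HHC, which did not overlap but were not called (0.84 ± 0.63, adjusted p = 0.664).

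Fcer1g, the common γ-chain of activating Fc receptors, had 21.9, 19.2 and 9.49 CPM in C and 97.5, 263 and 40.9 CPM in H, a log2 fold change of 2.99 ± 0.57 (adjusted p = 0.012). It had 16.4, 14.3 and 11.4 CPM in CC_s and 39.3, 40.9 and 67.8 CPM in HC (1.81 ± 0.55, adjusted p = 0.536). Neither pair of groups overlapped, although the HC change was no longer called without mouse 3 of HC (1.51), mouse 2 of CC_s (1.82) or mouse 3 of CC_s (1.68). In CC_l it had 14.6 and 31.7 CPM and in HH 199.7 and 369 CPM (3.62 ± 0.72, adjusted p = 0.0247). In CCC it had 55.6 and 39.0 CPM and in HHC 106 and 81.6 CPM (0.99 ± 0.65, adjusted p = 0.61), again higher in both HHC mice without passing the test.

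Among the surface receptors, Csf1r behaved differently from the rest after the longer HFD. Csf1r is the receptor of Csf1 and Il34 and is required for the survival of most macrophages. Its levels were 24.3, 23.7 and 14.6 CPM in C, 71.2, 142 and 35.7 CPM in H, 10.9, 14.7 and 16.4 CPM in CC_s and 38.3, 40.7 and 61.1 CPM in HC, with no overlap in either comparison. The log2 fold changes of 1.99 ± 0.42 in H (adjusted p = 0.0195) and 1.74 ± 0.41 in HC (adjusted p = 0.473) were called. With the longer diet Csf1r was at 22.1 and 18.9 CPM in CC_l and 135 and 170.3 CPM in HH (2.89 ± 0.53, adjusted p = 0.0187). In CCC it was at 47.0 and 73.9 CPM and in HHC at 36.9 and 32.1 CPM. It was the only member lower in HHC than in CCC, in both mice, and this difference of -0.81 ± 0.49 did not pass the test (adjusted p = 0.576). Hmgxb3, which overlaps it, was also lower in HHC (-2.35 ± 1.34) at a few CPM, and its part in the Csf1r value was not tested.

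Adgre1, which encodes F4/80, was measured at 18.3, 10.7 and 8.69 CPM in C and 48.5, 141 and 20.2 CPM in H (2.48 ± 0.65, adjusted p = 0.0562). It was measured at 5.96, 7.62 and 5.20 CPM in CC_s and 15.0, 20.8 and 69.5 CPM in HC (2.48 ± 0.65, adjusted p = 0.536). These groups did not overlap, but the gap in H was small, with mouse 3 of H just above mouse 1 of C. Without mouse 2 of H the change was 1.45, and without mouse 3 of HC it was 1.51 in HC, which ended both calls. The CC_l mice had 6.04 and 9.82 CPM and the HH mice 116 and 239.9 CPM, the largest log2 fold change of the 10 in HH (4.49 ± 0.87, adjusted p = 0.0244). The CCC mice had 42.8 and 33.3 CPM and the HHC mice 73.6 and 41.7 CPM, and these overlapped (0.60 ± 0.75, adjusted p = 0.818).

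The 3 C1q chains, which assemble into 1 protein, did not move as 1 gene. In H, HC and HH, C1qb had the largest log2 fold change of the 3, and in HHC the smallest. It was at 22.2, 30.4 and 15.0 CPM in C, 231, 367 and 74.8 CPM in H, 21.2, 26.1 and 23.6 CPM in CC_s and 72.4, 71.6 and 148 CPM in HC, without overlap. Its log2 fold changes were 3.31 ± 0.57 in H (adjusted p = 0.00801) and 2.04 ± 0.54 in HC (adjusted p = 0.536). Among older mice it was at 30.1 and 39.7 CPM in CC_l and 443 and 642 CPM in HH (3.96 ± 0.72, adjusted p = 0.0187), and at 65.4 and 78.1 CPM in CCC and 169.6 and 48.0 CPM in HHC, where the mice overlapped (0.60 ± 0.64, adjusted p = 0.776).

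C1qa was the member with the weakest differences in the short arm. It was at 36.8, 29.6 and 15.3 CPM in C, 133, 110.0 and 65.9 CPM in H, 58.8, 33.7 and 45.6 CPM in CC_s and 38.7, 48.0 and 182 CPM in HC. The H mice were above the C mice (1.92 ± 0.74, adjusted p = 0.192), and the HC mice overlapped with CC_s (0.96 ± 0.72, adjusted p = 0.72). Neither was called. Without mouse 3 of HC the C1qa difference in HC was -0.092. With 25 weeks of diet C1qa was at 22.2 and 15.2 CPM in CC_l and 262 and 230.0 CPM in HH and was called (3.72 ± 0.97, adjusted p = 0.057), but not without mouse 2 of CC_l (3.50). At 37.0 and 65.3 CPM in CCC and 312 and 17.8 CPM in HHC, it held both the highest and the lowest of these 4 mice in HHC, 17.6 times apart, and its log2 fold change of 1.69 ± 0.90 (adjusted p = 0.525) turned to -1.53 without mouse 1 of HHC.

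C1qc had a log2 fold change between those of the other chains in H, HC and HHC and the lowest of the 3 in HH. It had 31.8, 31.8 and 22.9 CPM in C and 103, 179.6 and 64.2 CPM in H, and was called (2.00 ± 0.58, adjusted p = 0.0828), but not without mouse 2 of H (1.53) or mouse 3 of C (1.86). In CC_s it had 36.8, 31.8 and 27.9 CPM and in HC 31.6, 49.6 and 152 CPM, which overlapped (1.27 ± 0.57, adjusted p = 0.569). The C1qc mRNA was thus not called in HC. In CC_l it had 27.6 and 25.1 CPM, in HH 188 and 348 CPM (3.34 ± 0.75, adjusted p = 0.0309), in CCC 57.1 and 71.9 CPM and in HHC 227 and 49.1 CPM (1.10 ± 0.69, adjusted p = 0.593). As with C1qa and C1qb, 1 HHC mouse was above and 1 below the CCC mice, and without mouse 1 of HHC the difference turned to -0.58 for C1qb and -0.40 for C1qc.

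**Figure D1:**
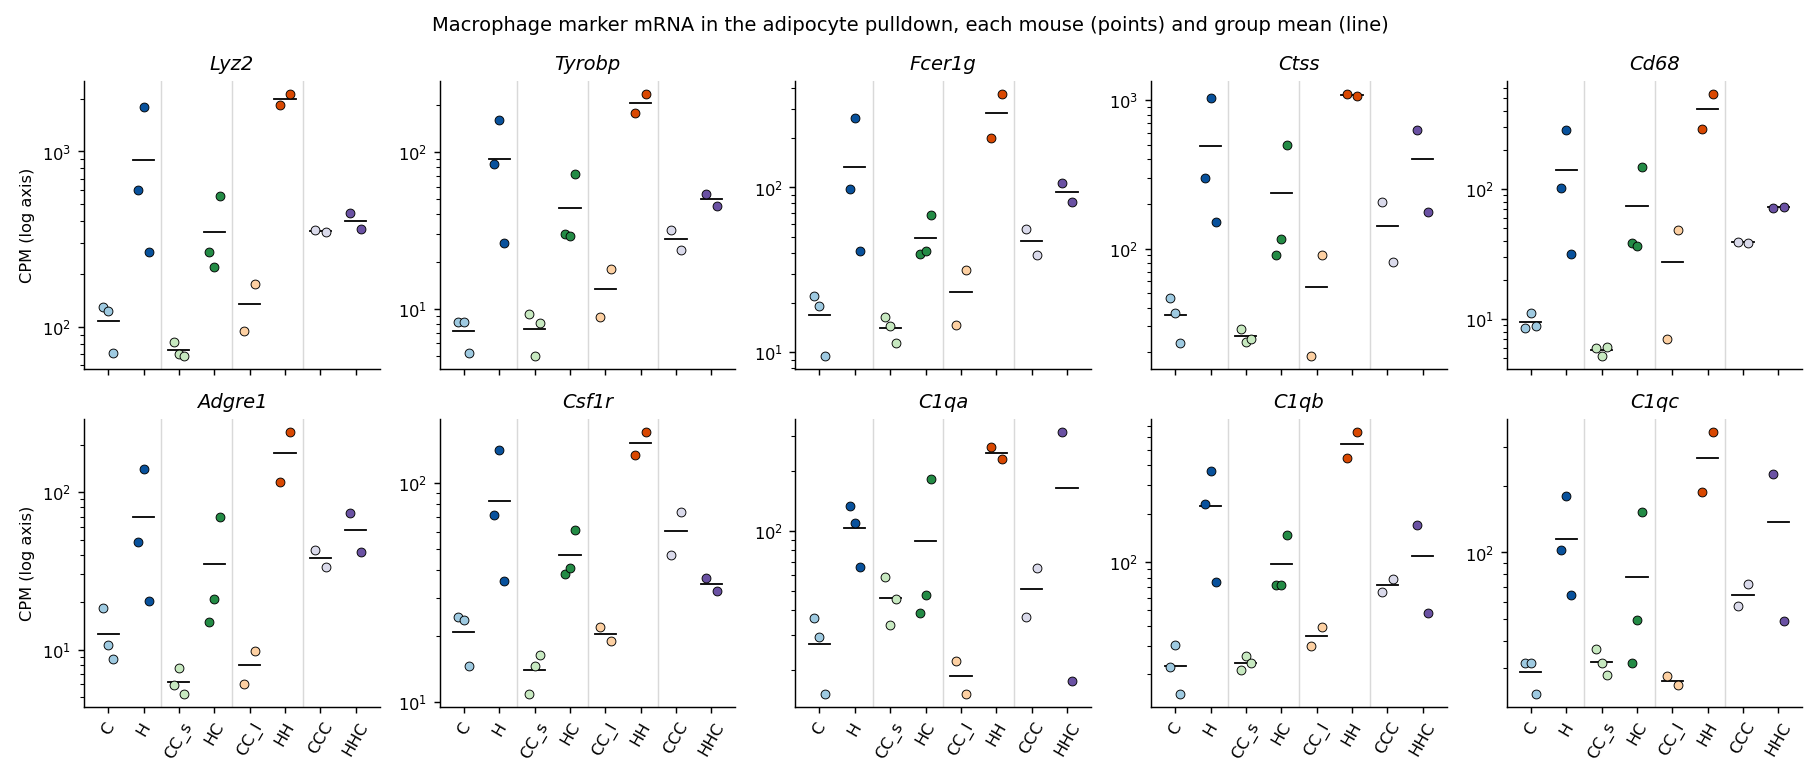
CPM of each of the 10 genes (log axis, a separate scale per gene) in each of the 20 mice (points) by group, with the group mean as a line and each HFD or WL group to the right of its own chow control. HH was the highest group mean for all 10 genes, with Lyz2 at 1836 and 2126 CPM, and the C1qa values of the HHC mice were 312 and 17.8 CPM.

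Counted together, 9 of 10 members were called higher in H than in C, where 3.57% of all genes tested were called higher. Of these, 7 also had an adjusted p under 0.05 (1.28% of all genes), and in all 10 every H mouse was above every C mouse (13.4% of all genes). The median log2 fold change of the members was 3.02 and that of all genes -0.15. In HC against CC_s, 8 of 10 were called higher (1.57% of all genes), all but C1qa and C1qc, and 8 did not overlap (8.01%), with a median of 2.15 against 0.27 for all genes. No member had an adjusted p under 0.05 in HC by edgeR's test, nor did any other gene, whereas 9 members had a nominal p under 0.05 (8.69% of all genes). Without mouse 3 of HC, the library with spermatid RNA and the highest level of all 10 members in its group, 5 of 10 were called. Leaving out mouse 2 of H, the highest H mouse for 9 members, left 7 of 10 called in H.

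After 25 weeks of HFD, 10 of 10 members were called higher in HH than in CC_l (4.92% of all genes), 9 of them with an adjusted p under 0.05 (1.75%), with a median of 3.89 against -0.23 for all genes. All 10 were also without overlap, which in groups of 2 held for 26.3% of all genes. Without mouse 1 of CC_l, the library with the most spermatid RNA, 9 of 10 were called. In HHC against CCC, 0 of 10 members were called by edgeR's test or by DESeq2, where 0.447% of all genes were called higher, and 0 had a nominal p under 0.05 (10.7% of all genes). Still, 9 of 10 differences were above 0, with a median of 0.87 against -0.06 for all genes, and the mice did not overlap for Lyz2, Tyrobp, Fcer1g and Cd68, higher in HHC (4 of 10, against 8.49% of all genes), or for Csf1r, lower in HHC (1 of 10, against 20.3%). For Lyz2 this was nearly a tie, with 359.8 CPM in the lower HHC mouse and 358 CPM in the higher CCC mouse.

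**Figure D2:**
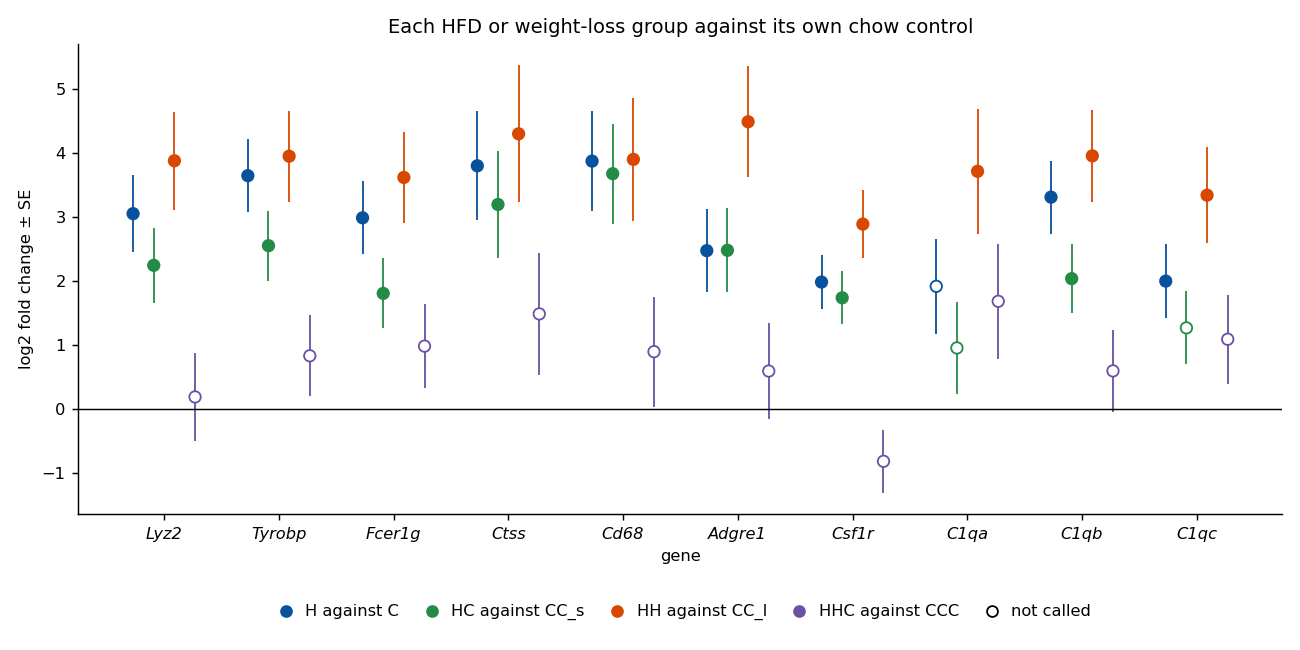
Log2 fold change (vertical axis) of each gene in each HFD or WL group against its own chow control, from edgeR's quasi-likelihood fit with its standard error. Filled points were called, open points were not. HH values ran from 2.89 (Csf1r) to 4.49 (Adgre1), and HHC values from -0.81 (Csf1r) to 1.69 (C1qa).

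The chow groups themselves were not level. By the study's methods, controls ate a low-fat chow during the HFD phase, and all mice ate another chow during the WL period. Thus CC_s and C, and CCC and CC_l, differed in chow as well as in age, which cannot be told apart. Between CC_s and C, 0 of 10 members were called by edgeR's test or by DESeq2 (2.45% of all genes were called in either direction), 0 with a nominal p under 0.05 (11.2% of all genes), and the median difference was -0.36. Between CCC and CC_l, all 10 were higher in the older mice, from 0.50 for Cd68 to 2.27 for Adgre1, with a median of 1.33 against -0.05 for all genes, and in 8 of 10 the mice did not overlap (17.6% of all genes higher). Csf1r alone was called (1.56 ± 0.50, adjusted p = 0.358, 0.755% of all genes called higher), and that call was lost with RLE normalization, halved counts, only the compared groups, the replicate block or the covariate of nuclear-retained RNA, or without mouse 1 or 2 of CC_l or mouse 2 of CCC. Adgre1, at 2.27 ± 0.79, narrowly missed the call and was called in its place with only the compared groups (2.18). Since HH is compared with CC_l and HHC with CCC, these differences enter the comparisons above: HHC values are read against a control that was higher than the one of HH.

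Whether the changes with obesity and after WL differed was tested as an interaction. For H and HC, 0 of 10 members passed by edgeR's test or by DESeq2 (differences of the log2 fold changes from -0.01 to 1.27, 0 with a nominal p under 0.05 against 11.8% of all genes). The median difference was 0.77 for the members and -0.31 for all genes. In the long arm, the change in HH exceeded that in HHC for all 10 members, from 2.03 for C1qa to 3.89 for Adgre1, with a median of 3.06, and 8 of 10 had a nominal p under 0.05 (15.5% of all genes). Only Csf1r passed the adjusted threshold, with a difference of 3.70 ± 0.72 (adjusted p = 0.0329, 0.792% of all genes passed in this direction), and it did not pass with RLE normalization, with only the compared groups, with the covariate of nuclear-retained RNA, with the replicate block or without any 1 mouse of CC_l, HH or HHC or mouse 2 of CCC. Without reference to the controls, every HH mouse was above every HHC mouse for 8 of 10 members, all but C1qa and C1qc (29.9% of all genes), while in 0 of 10 every H mouse was above every HC mouse (6.56% of all genes). The changes in HH and in H were all closer than this: 0 members passed by either tool and 0 had a nominal p under 0.05 (5.79% of all genes), with differences from 0.03 ± 1.13 for Cd68 to 2.01 ± 0.99 for Adgre1. Between the 2 WL groups, 0 passed the adjusted p by edgeR's test and 1 by DESeq2, and 3 of 10 had a nominal p under 0.05 (11.8% of all genes): Lyz2, Cd68 and Csf1r, with smaller changes in HHC than in HC (-2.06 ± 0.89, -2.78 ± 1.13 and -2.55 ± 0.65). All other members except C1qa also had a smaller change in HHC than in HC, and for C1qa the difference was 0.73 ± 1.13. The median of this difference was -1.71 for the members and -0.50 for all genes, which were thus also shifted toward smaller changes in HHC.

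Summed over the 10 genes, the level was 194 to 347 CPM in C and 776 to 4489 CPM in H, 232 to 276 CPM in CC_s and 659 to 1960 CPM in HC. In the long arm the sum was 252 and 471 CPM in CC_l, 4741 and 5962 CPM in HH, 852 and 938 CPM in CCC and 924 and 2125 CPM in HHC. The lowest H mouse was below both CCC mice, whereas the HH mice were above all others. Within H, the highest over the lowest mouse was 6.78 for Lyz2, 9.07 for Cd68 and 2.02 for C1qa, whereas in HH no gene differed by more than 2.07 times.

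Per kilobase of exon, Lyz2 had the highest mean level of the 10 in every group, from 55.7 CPM per kb in CC_s to 1505 CPM per kb in HH. Ctss came next in HH at 797 CPM per kb, followed by C1qb at 499 CPM per kb. Adgre1 and Csf1r had the lowest 2 levels in every group, at 54.9 and 26.4 CPM per kb in HH. Hence these surface receptors, the members with the most exon bases (3238 and 5774), were the least abundant per length. Without division by length the order differed between groups. In C, their mean CPM of 12.6 and 20.9 was above that of Cd68 (9.50) and Tyrobp (7.18). In HH, they were also the lowest 2 by mean CPM (178 and 153).

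The order of group means was similar for the genes. HH was highest and 1 of the groups C, CC_s and CC_l lowest for all 10, and H was the second highest for all except C1qa and C1qc, for which HHC was. Many neighbours in that order overlapped: for Lyz2, CC_s and C, C and CC_l, HC and CCC, and HHC and H overlapped, while CC_l and HC, CCC and HHC, and H and HH did not. For C1qa, every neighbouring pair of groups overlapped from the lowest (CC_l, mean 18.7 CPM) to the highest (HH, mean 246 CPM).

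Across mice, the 10 genes rose and fell together. Over the 20 mice, the Pearson r of log2 CPM lay between 0.67 and 0.98 for the 45 pairs of members, with a median of 0.93. Spearman's rho lay between 0.55 and 0.97 (median 0.89). Permutation p-values (100000 permutations, two-sided) ran from 1e-05, the smallest they can give, to 0.0018 for r and 0.0129 for rho, and adjusted over the 45 pairs the highest remained 0.0018 and 0.0129. Without the 2 mice farthest from the median of the first gene of a pair, r was 0.53 to 0.98 (median 0.90). The mice of different groups differ in level, which by itself makes such r high, and the pairs share libraries and genes. Over all pairs of the 21464 genes tested, the median r was 0.01 and the 95th percentile 0.63, below 45 of 45 member pairs.

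Within arms the median r was 0.96 over the 12 mice of the short arm and 0.90 over the 8 mice of the long arm. When each mouse was taken as its deviation from its group mean, the median fell to 0.79 and ranged from 0.25 (Cd68 and C1qa) to 0.94 (Lyz2 and Tyrobp, and Lyz2 and Fcer1g), with a median of 0.88 in the short and 0.52 in the long arm, where groups of 2 leave little to correlate. Thus mice of 1 diet group in the short arm that were high in 1 member tended to be high in the others. In the long arm, r of deviations ran from -0.40 to 0.96 and was under 0.5 for 22 of 45 pairs. With both arms together, all 5 pairs under 0.5 joined C1qa to a gene outside the C1q complex (Lyz2, Tyrobp, Fcer1g, Cd68 or Csf1r). By deviations, the 3 pairs of C1q genes had r of 0.73 to 0.86, the 21 pairs among the other 7 genes a median of 0.85, and the 21 mixed pairs a median of 0.64. Outside the C1q genes, Ctss and Csf1r had the lowest r by deviations (0.55 over both arms and -0.40 within the long arm).

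**Figure D3:**
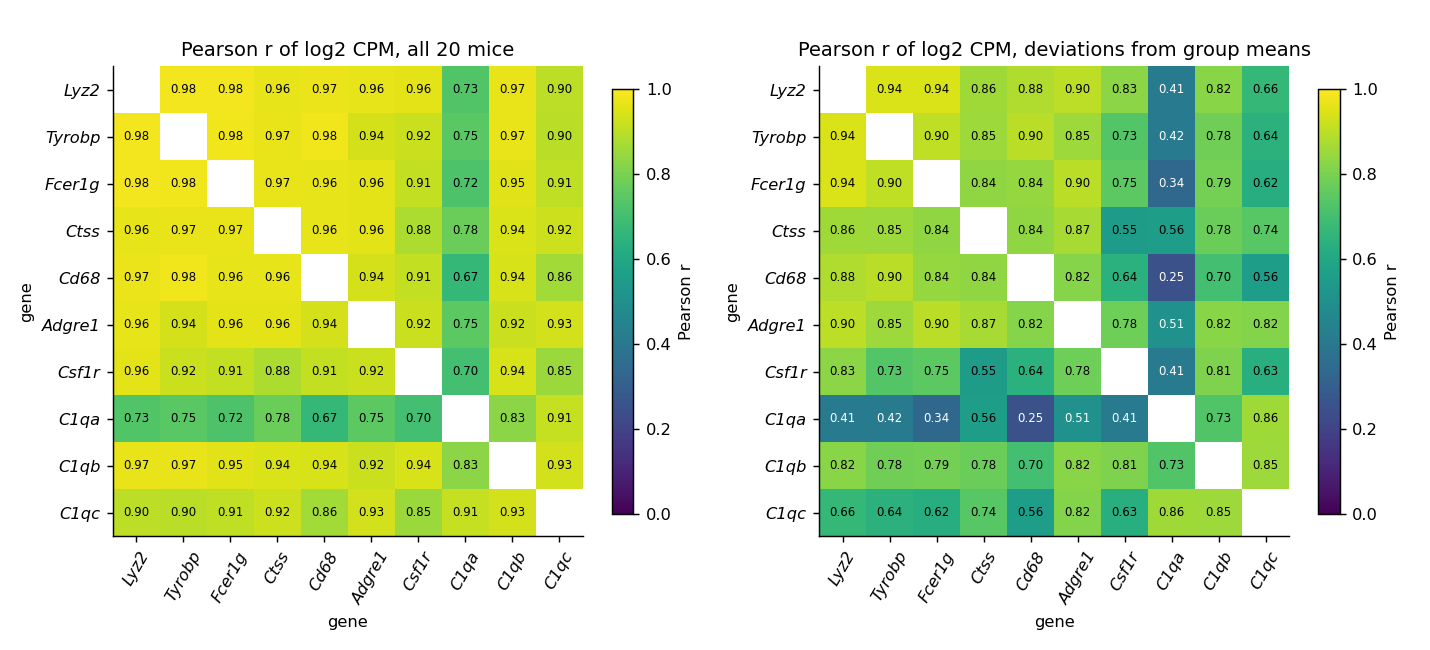
Pearson r of log2 CPM for the 45 pairs of genes (both axes list the 10 genes), over all 20 mice (left) and after subtracting each group's mean (right), on a colour scale from 0 to 1. The C1qa row is the darkest in both panels, with 0.67 and 0.25 for Cd68.

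The mean of the 10 standardized log2 CPM ordered the mice from -1.23 (mouse 3 of C) to 1.87 (mouse 2 of HH). The 8 lowest were the C, CC_s and CC_l mice, the 3 highest were mouse 2 of H and both HH mice, and the widest gap, from 0.13 to 0.78, lay between mouse 2 of CCC and mouse 1 of H. Lyz2 (r = 0.99) and C1qb (0.98) were closest to that mean and C1qa (0.82) farthest, as a description over genes that enter the mean. Of the genes outside the 10, those with the most similar pattern over the 20 mice were Fcgr3 (r = 0.98), Lipa (0.98), Ifi30 (0.97), Clec12a (0.97), C3ar1 (0.97), Clec4a3 (0.97), Emp3 (0.97), Man1c1 (0.96), Lgmn (0.96) and H2-Ab1 (0.96). Fcgr3 is an Fc receptor that signals through the chain encoded by Fcer1g, C3ar1 is a receptor of a complement fragment, Lipa, Ifi30 and Lgmn are lysosomal enzymes, and H2-Ab1 is an MHC class II chain. These genes are the top of a ranking of 21464 and their r is given without a test.

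The members did not change in equal measure within a library. The ratio of Lyz2 to the mean of the 3 C1q genes was, on the log2 scale, 2.12, 2.00 and 2.02 in C and 2.04, 3.22 and 1.97 in H, which overlapped, and 1.20, 1.20 and 1.13 in CC_s and 2.57, 1.99 and 1.81 in HC, which did not (difference 0.95). In the long arm it was 1.84 and 2.81 in CC_l, 2.72 and 2.51 in HH, 2.79 and 2.28 in CCC and 0.96 and 3.37 in HHC. The 2 HHC mice were thus at both ends of all 20 values. The following 2 ratios were chosen after the levels had been seen and carry no test. C1qb over C1qa was higher in every H mouse (0.79, 1.74 and 0.18) than in C (-0.73, 0.04 and -0.03), and higher in HC (0.90, 0.58 and -0.30) than in CC_s (-1.47, -0.37 and -0.95). In the older mice it overlapped, between HH (0.75 and 1.48) and CC_l (0.44 and 1.39) and between HHC (-0.88 and 1.43) and CCC (0.82 and 0.26). Ctss over Csf1r was higher in H (2.06, 2.87 and 2.08) than in C (0.92, 0.64 and 0.66) and overlapped between HC (1.23, 1.52 and 3.04) and CC_s (1.41, 0.69 and 0.59). It was higher in HH (3.03 and 2.65) than in CC_l (-0.23 and 2.26), and higher in HHC (4.09 and 2.45) than in CCC (2.12 and 0.13), where Ctss was above and Csf1r below the control mean.

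**Figure D4:**
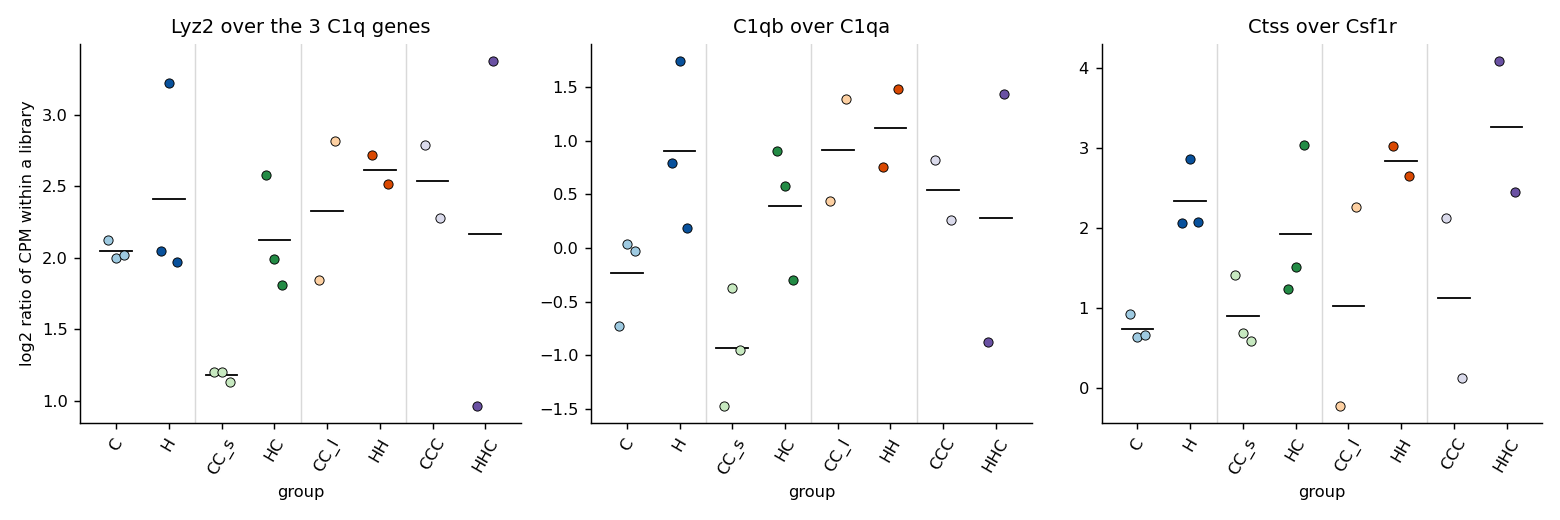
Log2 ratio of CPM within each library (vertical axis) for Lyz2 over the geometric mean of the 3 C1q genes, C1qb over C1qa and Ctss over Csf1r, by group, with each mouse as a point and the group mean as a line. The HHC mice lie at 0.96 and 3.37 in the first panel, and every H mouse lies above every C mouse in both other panels.

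Genes that work with the members were followed in lists chosen by their function. Among 19 tested receptors that use Tyrobp or Fcer1g and signalling genes downstream of them, 4 passed higher in H, 5 in HC and 5 in HH, 0 passed in HHC and 0 were lower, and the medians were 1.29, 1.85, 1.86 and 0.79. In H these were Trem2, a lipid receptor (3.83 ± 1.05), the Fc receptors Fcgr3 (3.02 ± 0.61, adjusted p = 0.0164) and Fcgr1 (2.19 ± 0.73), and the kinase Lyn (1.90 ± 0.35, adjusted p = 0.00991). Of 10 genes of the Csf1r pathway, 1 was called higher in H and 2 in HH, and 0 in HC or HHC. In H this was Spi1, which encodes PU.1 (2.00 ± 0.66). In H against C the ligands did not follow their receptor: Csf1 was at -0.40 ± 0.39 and Il34 at -0.05 ± 0.31, neither called. Over all mice, r with the mean of the 10 members was 0.20 for Csf1 and -0.59 for Il34. By deviations from group means it was 0.58 and -0.68, so the 2 ligands differed.

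Of 9 genes that act with C1q, 2 were called higher and 1 lower in H, 1 higher in HC and 5 higher in HH, but 0 in HHC. Serping1, the C1 inhibitor (2.24 ± 0.52, adjusted p = 0.0326), and Cd93 (2.43 ± 0.68) were higher in H, and C2, the component cleaved after C1 is activated, was lower (-2.54 ± 0.50, adjusted p = 0.0148). Over all 21464 genes tested, 626 were called lower in H. Of 10 genes of lysosomal antigen processing, 4 were called higher in H (Lgmn, 2.18 ± 0.63, Cd74, 1.75 ± 0.55, Ctsd, 1.47 ± 0.41, and Ctsz, 1.10 ± 0.37) and 8 in HH, but 0 in HC or HHC. Of 15 other leukocyte and myeloid genes, 4 were called higher in H (Itgb2, 3.18 ± 0.71, Ms4a7, 2.93 ± 0.89, Mpeg1, 2.66 ± 0.91, and Cd53, 2.30 ± 0.64), 3 in HC and 8 in HH, but 0 in HHC. Over all genes tested, 3.57%, 1.57%, 4.92% and 0.447% were called higher in H, HC, HH and HHC, so that 0 calls in lists of this size in HHC, or 1 of 10 in H, are near the share over all genes.

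Markers of other cells moved along with the members in some groups. Of 7 lipid-associated macrophage genes, 5 were called higher in H, 4 in HC and 2 in HH but 0 in HHC (3.57%, 1.57%, 4.92% and 0.447% of all genes). Their median log2 fold changes were 3.33, 3.77, 3.07 and 0.56, so HH had fewer calls than H at a similar median. Their summed CPM was 1926 and 1980 in HH, against 225 and 582 in CC_l. Of 7 perivascular macrophage genes, 1, 0, 4 and 0 were called higher (medians 0.86, 0.65, 1.88 and -0.11), and 1 was called lower in HHC (Cd163, -1.49 ± 0.50). Called lower in HHC were 573 of the 21464 genes tested. Of 5 endothelial genes, 2 were called higher in H, 5 in HH and 0 in HC, and in HHC all 5 were below CCC and none was called (median -1.87). Their summed CPM was 1127 to 1608 in H against 261 to 627 in C, 163 to 881 in HC against 155 to 875 in CC_s, 710 to 1298 in HH against 127 to 150 in CC_l, and 90.7 to 94.4 in HHC against 227 to 457 in CCC. Of 5 adipocyte progenitor genes, 1, 1, 3 and 0 were called higher in the 4 comparisons.

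Of 10 adipocyte markers, 1 was called higher (Lep) and 1 lower (Cfd) in H, 1 lower in HH (Cfd), and 0 in HC and HHC. Their summed CPM was 36395 to 70131 in H against 45122 to 169383 in C, and 37781 to 48020 in HH against 99181 to 114906 in CC_l. In HC, mouse 3, the highest for all 10 members, had 20748 CPM and the other mice 105193 and 128722 CPM, against 112955 to 138972 in CC_s. In HHC, mouse 1, the higher one for all 3 C1q genes and Ctss, had 60733 CPM and mouse 2 had 131092 CPM, against 40682 and 103348 CPM in CCC. Of 5 nuclear-retained RNAs, 2 were called lower in H (Neat1 and Snhg11) and 2 lower in HHC. Over all 21464 genes tested, 626 were called lower in H, 403 in HH and 573 in HHC. In 3 of 7 neutrophil genes (Ly6g, Ngp and Retnlg), 16 or 17 of the 20 libraries had no count, and of the 4 that passed the filter 1 (S100a8) was called higher in H. Monocyte, dendritic cell, mast cell and lymphocyte lists had 0 or 1 gene called in each comparison. The part of these differences in the values of the 10 members was not tested.

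**Figure D5:**
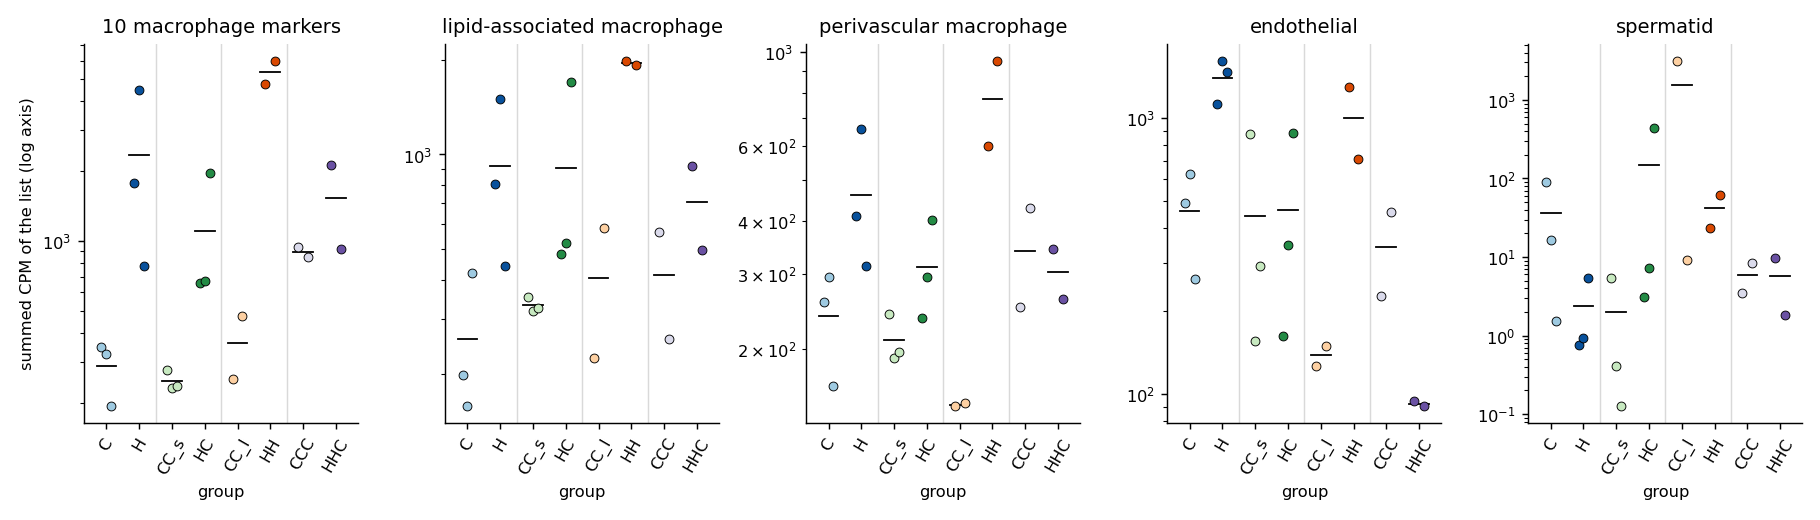
Summed CPM (log axis) in each mouse of the 10 macrophage markers and of 7 lipid-associated macrophage, 7 perivascular macrophage, 5 endothelial and 5 spermatid genes, by group, with the group mean as a line. The endothelial sum is lowest in both HHC mice (90.7 and 94.4), and the spermatid sum is highest in mouse 1 of CC_l (3114).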

How the data were processed

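The authors trimmed the reads with Trim Galore 0.6.6, aligned them to mm10 with HISAT2 2.2.1, assigned them to genes with featureCounts (Subread 2.0.1) and deposited whole-number counts per gene and mouse, without normalization. Which annotation and strand setting were used, and whether both ends of a pair were counted, is not given in the sources used here, so halved counts were tried. GENCODE vM21 gave symbols for 98.2% of 46078 genes.

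edgeR 4.0.16 (R 4.3.3) gave CPM, log2 CPM (prior count 2) and log2 fold changes after filterByExpr and TMM, by a quasi-likelihood fit of 8 groups over 20 libraries without covariates. A DEG needed an unadjusted p under 0.01 and a log2 change of 1 or more in size, and an interaction a p under 0.05 after Benjamini-Hochberg adjustment over 21464 genes. Mice do not overlap where every mouse of 1 group is above every mouse of the other. Correlations were tested with 100000 permutations. Alternatives were DESeq2 1.42.0, edgeR's likelihood ratio test, RLE, no filter, a fit of only the compared groups, a replicate block, a nuclear-retained RNA covariate and leaving out each mouse. The procedure was tested on simulated data. The members and lists were chosen with earlier results of these data known. Named genes were all members, at most 4 genes of a partner list with the largest change in H among those called, Csf1 and Il34, at most 3 genes of a marker list, and the 10 genes most like the members. Nothing says that mice came from separate litters or cages. Counting limits cover counting error only. Promoters came from RefSeq (GRCm38.p6), and figures were drawn with matplotlib 3.10.9.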

Additional observations from a re-analysis of the deposited data

Results flagged for a closer look

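The change of Csf1r, the receptor of Csf1 and Il34, was larger in HH against CC_l than in HHC against CCC by 3.70 ± 0.72 on the log2 scale. The difference between the effects passed its own interaction test (quasi-likelihood test of edgeR, adjusted p = 0.0329), with Csf1r higher in 2 of 2 HH mice and lower in 2 of 2 HHC mice than in any mouse of their controls. It did not pass with RLE normalization, only the compared groups, the replicate block or the covariate of nuclear-retained RNA, nor when any 1 mouse of CC_l, HH or HHC or mouse 2 of CCC was left out, with differences of 3.21 to 3.89 in those fits. Csf1r was also higher in CCC than in CC_l (1.56 ± 0.50), so the difference includes one between the controls.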

How the results depend on the processing

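The counts of members called in H, HC and HH stayed within 1.5 times their values under each alternative tool, normalization and filter, whereas by the adjusted p 0 members passed in HC. Leaving out 1 mouse gave 7 to 9 in H, 5 to 8 in HC (5 without mouse 3 of HC), 9 to 10 in HH and 0 to 1 in HHC (1, C1qa, without mouse 2 of HHC). In HHC, 1 member was called with no filter on low counts and 1 with the covariate of nuclear-retained RNA, and between CC_s and C 1 with no filter. The single call between CCC and CC_l became 2 with DESeq2 or the likelihood ratio test, 3 with no filter and 0 with RLE, halved counts, the nuclear-retained RNA covariate or the adjusted p, and 0 to 1 without 1 mouse. For HH minus HHC, the 1 member that passed became 5 with DESeq2, in the likelihood ratio test and by the nominal p and fold rule, 8 with no filter, and 0 with RLE, the nuclear-retained RNA covariate or only the compared groups, and 0 to 1 without 1 mouse. For HHC minus HC, the count of 0 became 1 with DESeq2, in the likelihood ratio test and by the nominal p and fold rule, and 2 with no filter. The causes were not tested.

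Correlations of deviations between same-numbered mice of the groups compared lay between -0.28 and 0.19. In groups this small, the deviations of the mice depend on each other. These values therefore cannot decide whether the replicate numbers pair the mice. With the replicate block the counts were 9 in H, 8 in HC, 10 in HH and 0 in HHC, 0 between CCC and CC_l and 0 for HH minus HHC. With the crossed pairing, chosen after seeing the data, HH kept 10 and HHC 0.

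Among single genes, the change of Cd68 in CCC against CC_l ran from -0.31 without mouse 1 of CC_l to 2.49 without mouse 2. That of C1qa in HC ran from -0.092 without mouse 3 of HC to 1.32 without mouse 1, and in HHC the changes were -1.53, -0.58 and -0.40 without mouse 1 of HHC and 2.61, 1.24 and 1.81 without mouse 2 for C1qa, C1qb and C1qc. The ratio of Lyz2 to C1q differed by -0.043 to 0.58 in H, -0.20 to 0.77 in HH and -1.57 to 0.84 in HHC when 1 mouse was left out, so its sign in these groups rests on single mice (mouse 2 of H, mouse 1 of CC_l and mouse 1 of HHC), and it was 1.496 in HC with C1qa alone. The median r of 0.93 became 0.79 by deviations from group means and 0.92 to 0.94 without 1 mouse. The lowest count of a member in any mouse was 82.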
